A study of Mus musculus with 18 samples.

Results

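miR-375 was followed across the mammary tumours of 18 AKXD recombinant inbred strains. It is the single row of that name in a table of 583 mature miRNA rows (571 distinct ones), and it was set against the 280 other distinct rows that averaged 10 CPM or more (CPM, reads scaled to a common library size). AKXD strains descend from AKR/J and DBA/2J mice. Each was crossed to the FVB/N line FVB/N-TgN(MMTV-PyVT)634Mul, in which the mouse mammary tumour virus promoter drives the polyoma virus middle T oncogene, and the tumours came from the F1 offspring, so all groups share the transgene and an FVB/N parent and differ in the AKXD parent. RNA from the tumours of each strain was combined into 1 library, and how many mice entered a pool was not stated. Every strain is therefore a group with n = 1, no pair of strains has a replicate check, and the spread over strains holds strain, pool and library differences together. No normal mammary gland and no tumour without the transgene is among the samples.

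miR-375 is best known from the endocrine cells of the pancreas, where it restrains insulin secretion, and from the pituitary. In human breast tumours it is known as a miRNA of luminal, oestrogen receptor-positive disease. Other miRNAs mark epithelium more broadly: the miR-200b and miR-200c clusters repress Zeb1 and Zeb2 and hold cells in the epithelial state, and miR-203 and miR-205 belong to stratified and basal epithelium. In a bulk tumour library, fewer cells of a type and less RNA per cell cannot be told apart.

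The mouse gene Mir375 lies on the minus strand at chr1:74900658-74900721 (GRCm38), outside other annotated genes, 7515 bases from Cryba2 and 1350 bases from Cfap65. The hairpin is shown because it is the source of the miRNA described here. Capitals mark the miR-375-5p arm, and by the naming of the time the row miR-375 counts the other arm, now called miR-375-3p. Below it stand the 5 guide strands of the miR-200 clusters, the epithelial miRNAs that miR-375 was compared with first. Capitals in them mark the seed (bases 2 to 8). miR-200b, miR-429 and miR-200c share the seed AAUACUG, and miR-200a and miR-141 share AACACUG. All sequences are RefSeq's on GRCm38.p6.
Mir375 hairpin: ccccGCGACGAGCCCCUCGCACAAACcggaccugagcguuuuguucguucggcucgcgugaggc
miR-200b-3p: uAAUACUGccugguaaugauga
miR-429-3p: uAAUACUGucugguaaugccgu
miR-200c-3p: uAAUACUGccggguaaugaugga
miR-200a-3p: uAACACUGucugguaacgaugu
miR-141-3p: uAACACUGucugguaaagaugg

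The libraries held 4361244 to 14940331 recovered miRNA reads. The scaling factors behind the CPM were lowest in strain 14 (0.671) and highest in strain 28 (1.67). Strains 10, 13, 14 and 20 stood apart from the rest in an earlier analysis of the same data. They also had the lowest scaling factors, 0.714, 0.771, 0.671 and 0.776 in this order. Single correlations without these strains are given for miR-190, miR-140 and miR-330* only.

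miR-375 was a miRNA of middling abundance with 1 strain far above the rest. Over the 18 strains it averaged 107 ± 75.1 CPM (SD, n = 18), with a lowest value of 45.1 CPM in strain 25, a median of 85.3 CPM and a highest value of 382 CPM in strain 22. The other 17 strains averaged 91.2 ± 31.9 CPM (SD, n = 17). By mean CPM it ranked 138 of 281, far under the epithelial guide strands miR-200c (17036.5 ± 4844.8 CPM), miR-141 (7942 ± 2346 CPM) and miR-200b (4694 ± 868 CPM; SD, n = 18 each).

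Strain 22 had 3196 reads of miR-375, or 382 CPM with an exact Poisson interval of 369 to 395 CPM. Strain 11 followed at 155 CPM (interval 146 to 165) and strain 3 at 155 CPM (interval 148 to 163), and these neighbours did not differ beyond counting error. Strain 22 lay 2.46-fold above strain 11 (counting interval 2.30 to 2.64), and strain 11 lay 3.44-fold above strain 25.

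Below them the levels formed a near-continuous slope. Strain 7 was at 125 CPM, strain 21 at 116 CPM, strain 13 at 107 CPM, strain 18 at 98.6 CPM and strain 20 at 88.4 CPM. Strains 2, 10 and 24 followed at 85.5, 85.0 and 84.4 CPM, and strains 14, 16, 28 and 9 at 76.6, 73.1, 72.9 and 72.0 CPM. The lowest were strains 27 (56.6 CPM), 23 (54.4 CPM) and 25 (45.1 CPM). Of the 17 neighbouring pairs in this order, 13 had overlapping 95% intervals. The 4 that did not were strains 22 and 11, 3 and 7, 9 and 27, and 23 and 25. These intervals cover counting error only.

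**Figure D1:**
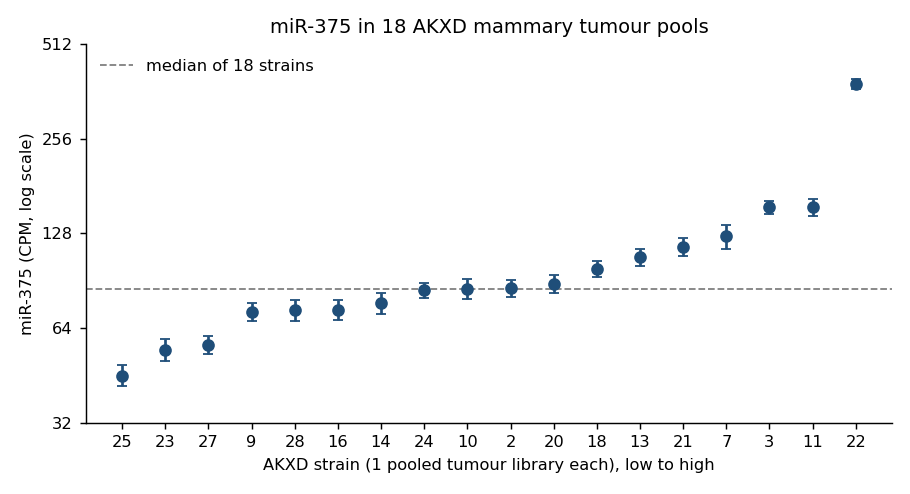
miR-375 in CPM (log axis) in each of the 18 strains, ordered low to high; points are single libraries, bars are exact 95% Poisson intervals of the reads, and the dashed line is the median of 85.3 CPM. Strain 22 stands at 382 CPM, and the next strain at 155 CPM.

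The gap at the top was among the largest of any miRNA. On the log2(CPM + 1) scale strain 22 was 1.29 above the next strain, against a median gap of 0.17 between the highest and second strain over the 281 rows. A gap at least as large was found in 4 rows, miR-375 included. The other 3 were miR-107 in strain 14 and miR-689 and miR-2137 in strain 7, so no other row had such a gap in strain 22. In the strain 22 library 19 of the 281 rows (6.76%) were highest, which made it 7th of the 18 strains by that count. It held the lowest value of 28 rows (9.96%), as many as strain 16, and only strain 10 held more (53 rows). As plain shares of the reads, miR-375 made up 0.0483% in strain 22, 0.0170% in strain 3, which was second on this scale, and 0.00482% in strain 25.

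The spread of miR-375 over strains was 0.69 log2 (SD, n = 18), rank 51 of 281, where the median row had 0.45. Among the 62 rows with a mean within 2 times its own it ranked 17, and their median was 0.51. Without strain 22 the spread was 0.49 log2 and the rank 115 of 281. The SD from read counting was 0.03 to 0.06 log2 per strain.

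**Figure D2:**
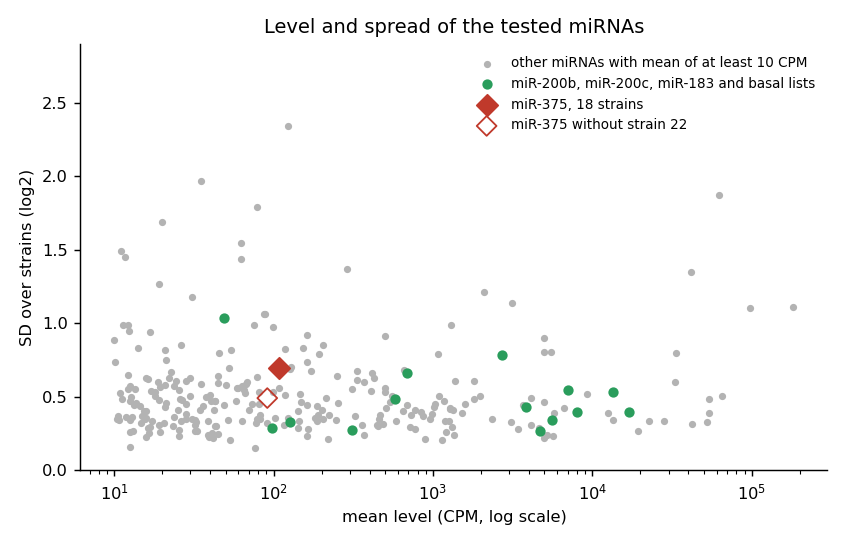
Mean CPM (log axis) against the SD over 18 strains (log2) for the tested miRNAs: grey points are single miRNAs, green points members of the epithelial lists, and the diamonds miR-375 with strain 22 (filled, SD 0.69) and without it (open, SD 0.49). With strain 22 left out, miR-375 lies near the median spread of 0.45.

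No epithelial miRNA was called as correlated with miR-375. Spearman correlations over the 18 strains were tested by permutation for all 280 other rows, with Benjamini-Hochberg adjustment over the 280. Of the 14 tested members of the miR-200b, miR-200c, miR-183 and basal lists 0 were called, where 0% of the 280 rows were. Their rho was above 0 in 5 members and below 0 in 9, with a median of -0.02, and the median over all 280 rows was -0.00. The 280 correlations had quartiles of -0.20 and 0.17, and a single row would have needed an absolute rho of at least 0.78 to be called. The working name of miR-375 as luminal epithelial can therefore not be read off its correlations with these miRNAs, and none of the lists used marks luminal cells alone.

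In the miR-200b cluster on chromosome 4, rho was near 0 for 4 of the 5 members over all 18 strains, and the median rho of the 5 was 0.00, against 0.17 without strain 22. miR-200b was at 3086 CPM in strain 16, 4623 CPM at the median and 6636 CPM in strain 25. The highest strain for miR-200b was thus the lowest for miR-375. Its rho with miR-375 was 0.00 (interval -0.47 to 0.47, permutation p = 1, adjusted p = 1), with Pearson r -0.10 (permutation p = 0.704, adjusted p = 0.998). Without strains 22 and 25, the farthest from the median of miR-375, r for miR-200b was 0.35. Over all strains miR-200a had rho 0.04 and r -0.15, miR-429 had rho -0.01 and r -0.14, and the passenger strand miR-200b* had rho -0.01 and r -0.42, none of them called. Without strains 22 and 25 r was 0.53 for miR-200a, 0.40 for miR-429 and 0.32 for miR-200b*. In that setting no row was called by the permutation test of r (smallest adjusted p = 0.955 over 279 rows). These members come from 1 cluster and are not independent of each other, and the share of all rows with r above 0 there was not counted. miR-200a*, the passenger strand of miR-200a, had the highest rho of the epithelial members, 0.47 (interval -0.03 to 0.78, permutation p = 0.0531, adjusted p = 0.538), and r was 0.27 (permutation p = 0.271, adjusted p = 0.851; 0.47 without strains 22 and 25).

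The miR-200c cluster on chromosome 6 and the other epithelial miRNAs gave no call either. miR-200c was at 11094 CPM in strain 28, 15324.5 CPM at the median and 26253 CPM in strain 10, with rho -0.02 (interval -0.48 to 0.45, permutation p = 0.947, adjusted p = 0.998) and r -0.13 (permutation p = 0.630, adjusted p = 0.965; 0.02 without strains 22 and 25). miR-141 had rho -0.29 (adjusted p = 0.808) and miR-141* 0.01. In the miR-183 cluster, expressed in epithelial and sensory cells, miR-183 (rho -0.20), miR-182 (-0.11), miR-183* (-0.06) and miR-96 (-0.04) were all slightly below 0. miR-203 had rho -0.11 (adjusted p = 0.936) and miR-205 0.19 (adjusted p = 0.889). The intervals were wide with 18 strains, so a missing call does not show that miR-375 and these miRNAs were unrelated.

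**Figure D3:**
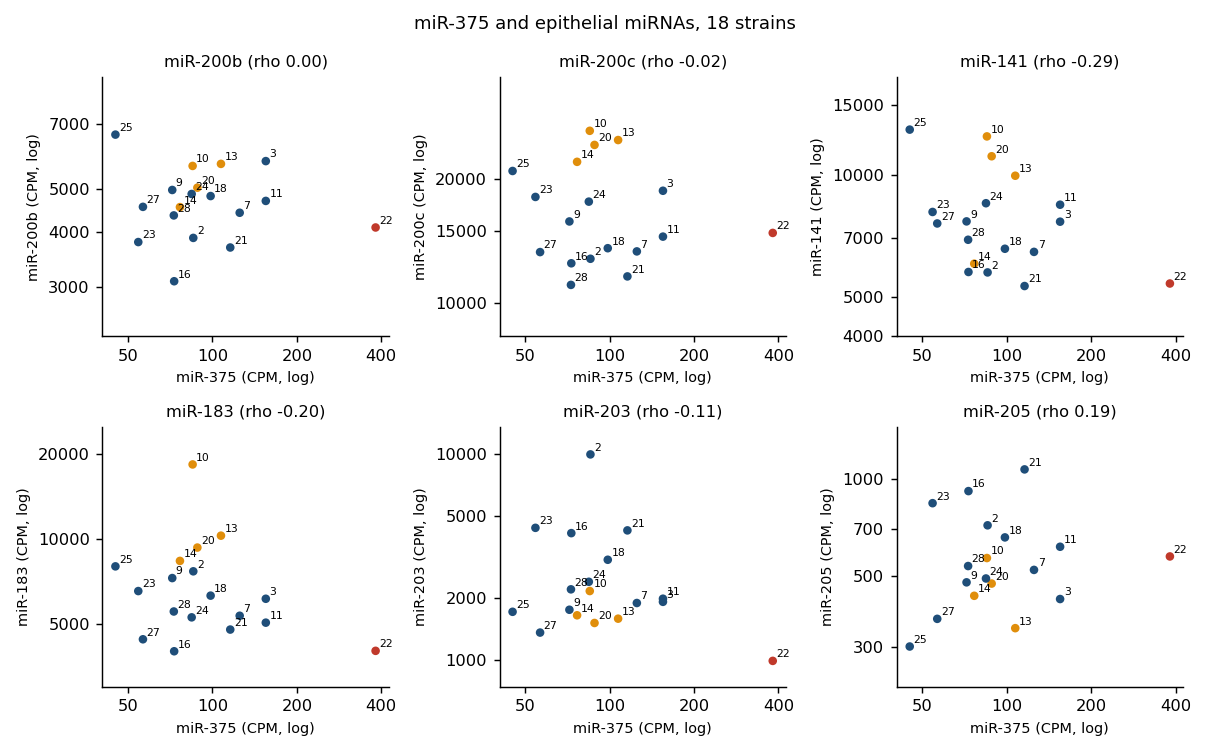
miR-375 (x axis, CPM, log) against miR-200b, miR-200c, miR-141, miR-183, miR-203 and miR-205 (y axes, CPM, log); each point is 1 strain, labelled with its number, with strain 22 in red and strains 10, 13, 14 and 20 in orange. Strain 22 lies at the far right in every panel, at 994 CPM for miR-203, the lowest of the 18 strains.

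At the scaling used, the strain with the most miR-375 was low for several epithelial miRNAs. In strain 22 miR-203 was at 994 CPM, against a median of 1954 CPM over the 18 strains, and miR-200b* at 184 CPM, against a median of 311 CPM; both were the lowest of all strains. miR-200a (3947 CPM against 5449), miR-429 (2430 CPM against 4101), miR-141 (5392 CPM against 7640) and miR-183 (4030 CPM against 6230) ranked 17 of 18 there. In all, 11 of the 14 epithelial members were below their median in strain 22, and 6 were among the 2 lowest values. Over all 281 rows these shares were 54.4% and 18.1%. miR-205 (575 CPM against 529), miR-96 (748 CPM against 695) and miR-200a* (92.2 CPM against 91.5) were above their medians there. miR-200c, the most abundant, was close to its median (14834 CPM against 15324.5), and summed over the 14 members strain 22 ranked 17 of 18, at 48782 CPM against a median of 59101 CPM. These counts were made after the values of strain 22 had been seen and carry no test. Strain 22 had a scaling factor of 1.26, higher than in every strain except strain 28 (1.67), and a higher factor gives lower CPM. Without the scaling factors, miR-203 and miR-200b* would not be lowest in strain 22, so those ranks depend on the scaling. How the other counts and ranks stand under other scalings was not tested.

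Lists of other cell types and tissues were set against miR-375 in the same way. Over all 15 lists 58 members could be tested, 0 were called, and 0 had an unadjusted p under 0.05. The islet and neuroendocrine list had 6 tested members, 3 with rho above 0 and 3 below (median -0.06). Of these miR-7a, an abundant islet miRNA, had rho 0.02 (mean 118 CPM), miR-184 0.11 and miR-9 -0.19. miR-124 and miR-153, defining neuronal and endocrine miRNAs, averaged 0.30 and 0.06 CPM. miR-216a, miR-216b and miR-217 of the exocrine pancreas had a median rho of 0.08.

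The remaining lists gave medians on either side of 0. The list of miRNAs linked to oestrogen receptor status in breast tumours had 7 tested members and a median of -0.08, 2 above 0 and 5 below. In it miR-342-3p had rho 0.19 and miR-342-5p 0.11, and miR-193b (-0.04), miR-26a (-0.08) and miR-26b (-0.19) were below 0. miR-221 and miR-222, which repress the receptor gene in human breast cancer cells, had rho -0.31 and -0.32. The list pools members with unlike links to the receptor, so its median and sign count cannot be read as a direction. The miR-148 and miR-152 list had the highest median, 0.30: miR-148b (0.41), miR-148a (0.33), miR-148a* (0.27) and miR-152 (0.15) were all above 0. Of all 280 rows, 139 had rho above 0. Without strain 22 the list's median rho was 0.28. Pearson r over all strains was 0.29, 0.25, 0.13 and 0.09 in the same order. Without strains 22 and 25 r was 0.05 for miR-148b, 0.12 for miR-148a, 0.23 for miR-148a* and -0.24 for miR-152. Skeletal muscle (median 0.12 over 5 members), erythroid (0.19 over 3), leukocyte (0.03 over 6) and endothelial miRNAs (0.02 over 2) lay above 0, and mesenchymal (-0.10 over 4) and smooth muscle miRNAs (-0.18 over 3) below it. miR-122, the liver miRNA, had rho -0.46 (adjusted p = 0.538) and was lowest in strain 21, at 1.56 CPM, and highest in strain 14, with a median of 58.9 CPM.

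**Figure D4:**
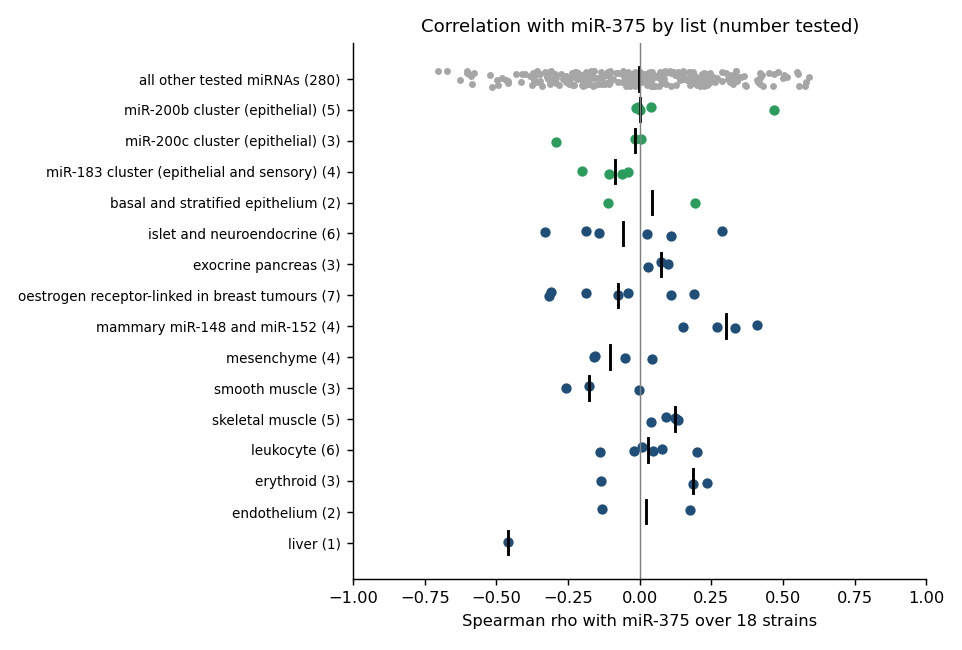
Spearman rho with miR-375 over 18 strains for the 280 other tested miRNAs (top row) and for the members of 15 lists; each point is a miRNA, black bars are medians, green points the epithelial lists, and the number tested is in brackets. The epithelial medians lie between -0.08 and 0.04, and the miR-148 and miR-152 list has the highest, 0.30.

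The miRNAs most like miR-375 were looked for in the whole table. With Spearman rho 0 of 280 rows were called (smallest adjusted p = 0.313), and 24 rows (8.57%) had an unadjusted permutation p under 0.05. Of these, 10 had a positive rho (3.57% of the rows) and 14 a negative one. With Pearson r 0 were called as well, and 24 had an unadjusted p under 0.05. That count was 14 for rho without strain 25, 7 for r without strains 22 and 25, and 57 for rho with libraries scaled by totals alone. The 10 highest rho were those of miR-672 (0.59), miR-190 (0.58), let-7b* (0.58), miR-127* (0.56), miR-1959 (0.55), miR-532-5p (0.55), miR-744 (0.51), miR-10b (0.50), miR-136* (0.50) and let-7a* (0.48). The 10 lowest were those of miR-330* (-0.70), miR-140 (-0.67), miR-1839-5p (-0.63), miR-669l (-0.60), miR-140* (-0.60), let-7d (-0.60), miR-125a-3p (-0.59), miR-107 (-0.59), miR-669a (-0.58) and miR-320 (-0.52). miR-127* and miR-136* come from the imprinted Dlk1-Dio3 locus, and miR-140 and miR-140* from 1 hairpin within Wwp2. The RefSeq mature sequences of the rows miR-190, miR-672 and miR-140* are shown because these 3 stand at the ends of the order, with seeds in capitals.
miR-190a-5p: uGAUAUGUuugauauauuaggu
miR-672-5p: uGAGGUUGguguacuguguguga
miR-140-3p: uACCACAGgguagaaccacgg

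miR-190, encoded within an intron of Tln2 on chromosome 9, was not called over all 18 strains; of the 31 alternatives it was called in 3, both sets of strains left out and libraries scaled by totals alone. Strain 22 had 230 CPM of miR-190, followed by strains 11 (207 CPM), 3 (178 CPM) and 21 (174 CPM). Strains 25, 27 and 23, the lowest for miR-375, had 113, 105 and 78.6 CPM. Strains 10, 13, 14 and 20 formed a separate low group for miR-190, at 54.2, 62.9, 50.2 and 50.4 CPM, below every other strain, while their miR-375 was at 85.0, 107, 76.6 and 88.4 CPM in the same order. The 3 strains with the most miR-375 were also the 3 with the most miR-190.

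Over the other 14 strains rho between miR-375 and miR-190 was 0.903 (interval 0.66 to 0.98, permutation p = 8.00e-05, adjusted over 281 rows p = 0.0225). Pearson r was 0.864 (permutation p = 8.00e-05, adjusted p = 0.0225), and 0.860 without strains 22 and 25. The next highest rho among the 281 rows was 0.618. Leaving out strain 28 as well gave rho 0.923 (adjusted p = 0.0197). These 4 strains were set apart with earlier results known and are the lowest for miR-190 itself. The interval and permutation p-values without them do not account for that choice, so these values describe the other 14 strains only. Over all 18 strains rho was 0.58 (interval 0.12 to 0.84, permutation p = 0.0126, adjusted p = 0.313), which was not called. Among the 4 strains set apart, strain 13 was highest and strain 14 lowest for both miRNAs, and no correlation is given over so few.

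miR-140 and its partner strand stood at the other end. miR-140 was at 456 CPM in strain 18, 923 CPM at the median and 3865 CPM in strain 25, the strain with the least miR-375. Strain 22, with the most miR-375, had 567 CPM of miR-140. For miR-140, Spearman rho was -0.67 (interval -0.88 to -0.25, permutation p = 0.00310, adjusted p = 0.313), and r was -0.58 (permutation p = 0.0142, adjusted p = 0.396; -0.48 without strains 22 and 25). With libraries scaled by totals alone rho of miR-140 was -0.16, and without strains 10, 13, 14 and 20 it was -0.71. miR-140*, at a mean of 5509 ± 3537 CPM (SD, n = 18), had rho -0.60 (adjusted p = 0.313). miR-140 is best known from cartilage.

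The remaining ends of the order were less separated. miR-330* had the lowest rho, -0.70 (permutation p = 0.00170, adjusted p = 0.313), over a range of only 12.2 CPM in strain 7 to 22.0 CPM in strain 9, and r was -0.41 (permutation p = 0.0929, adjusted p = 0.631; -0.59 without strains 22 and 25). With libraries scaled by totals alone its rho was 0.14, and without strains 10, 13, 14 and 20 it was -0.54. miR-672, encoded in an intron of Nexmif on the X chromosome, was highest in strain 7 (145 CPM) and lowest in strain 28 (26.7 CPM), and strain 22 had 62.1 CPM, near its median of 56.6 CPM. Its rho was 0.59 (permutation p = 0.0109, adjusted p = 0.313) and its r 0.36 (permutation p = 0.137, adjusted p = 0.673; 0.47 without strains 22 and 25). let-7b* and let-7a* were, like miR-190, highest in strain 22, at 17.0 and 36.9 CPM. let-7b* and let-7a* also had p under 0.05 with Pearson r (0.60 and 0.63), and without strains 22 and 25 r was 0.36 and 0.28.

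**Figure D5:**
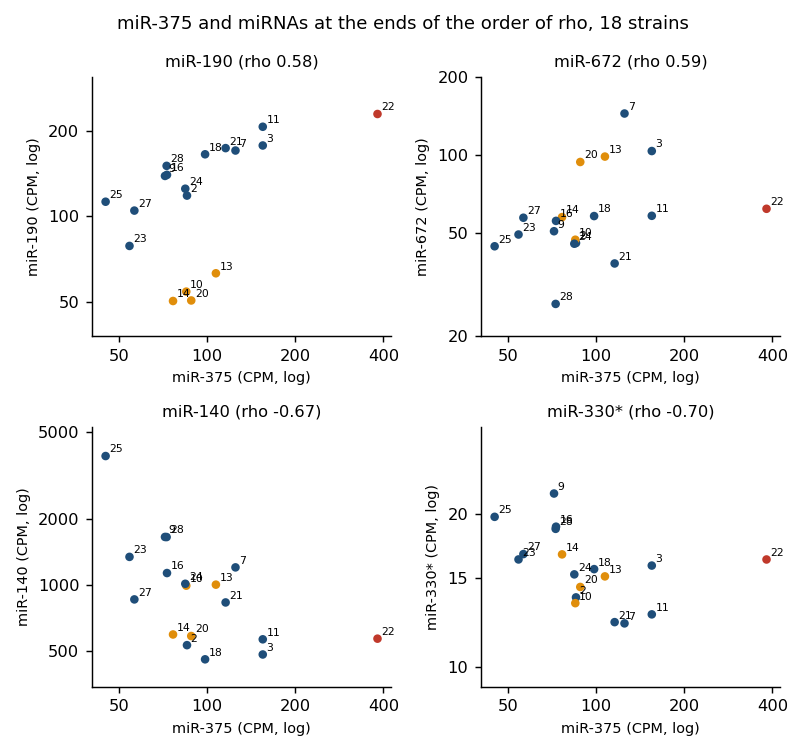
miR-375 (x axis, CPM, log) against miR-190, miR-672, miR-140 and miR-330* (y axes, CPM, log); each point is 1 strain, with strain 22 in red and strains 10, 13, 14 and 20 in orange. In the miR-190 panel the 4 orange strains lie apart at 50.2 to 62.9 CPM, and strain 22 is highest at 230 CPM, with strain 23 the lowest of the other 14 at 78.6 CPM.

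Measures of the libraries were compared with miR-375 too. The number of reads passed no threshold after adjustment, with lower miR-375 in deeper libraries: rho was -0.49 (permutation p = 0.0385, adjusted over 3 measures p = 0.115) and r was -0.53 (permutation p = 0.0181, adjusted p = 0.0542; -0.44 without strains 22 and 25). Strain 22 had 6619194 reads and strain 25 had 13558000. The part of depth in the correlations above was not tested. With the scaling factor, Spearman rho was -0.04 (permutation p = 0.881, adjusted p = 0.881; r 0.08, permutation p = 0.728) and with the first principal component 0.14 (permutation p = 0.592, adjusted p = 0.881; r 0.13, permutation p = 0.610). No batch is named in the labels.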

How the data were processed

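Small RNA of 18 mammary tumour pools was sequenced with Illumina chemistry. The authors deposited log2 values with 2 decimals. BWA and mm9 stand in the submitters' processing notes, with no role. How reads were counted and scaled, and against which miRNA set, was not given. Made linear, all 3818 values of up to 50 reads were whole reads multiplied by a library constant (tolerance 0.006 log2), and 0 stands for no reads; in strain 25 it can also stand for 1 read. Larger read numbers are recovered only to the precision of 2 decimals.

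The deposited log2 values were made linear. Each of 8 sets of identical rows was counted once. TMM scaling factors were computed (trimming 30% of the log ratios and 5% of the abundances), and values were tested as log2(CPM + 1), a scale on which low miRNAs change less. Only rows averaging 10 CPM or more entered the tests. Spearman rho and Pearson r with miR-375 were tested two-sided with 100000 permutations of the strains and Benjamini-Hochberg adjustment over all rows tested (threshold 0.05). Intervals of rho are 95% intervals by Fisher's transformation, and those of reads are exact Poisson intervals, which cover counting error only because PCR copies are not told apart. The permutation code was checked on simulated data. Each strain has 1 library, so the permutation p-values concern association over these single libraries and say nothing of variation within a strain. Because the deposited unit is log2, no count model was used.

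The miRNA, the 15 lists and the strains left out were chosen with earlier results of these data known. The rule for named miRNAs takes the 10 highest and 10 lowest rho, every measured epithelial list member and up to 4 abundant members of each other list; miR-339-3p, miR-689, miR-2137, miR-222, miR-342-5p, miR-193b and the low miR-124 and miR-153 are outside it and were named after their values were seen. Alternatives were other scalings, filters and pseudocounts, Pearson r, each strain left out in turn, sets of strains left out, the first principal component removed, and identical rows all kept. Python 3.11.15, numpy 2.4.6, pandas 2.3.3, scipy 1.17.1 and matplotlib 3.10.9 were used.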

Additional observations from a re-analysis of the deposited data

How the results depend on the processing

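Of the 31 alternatives, 3 changed the count of miRNAs called with miR-375, which was 0 of 280. With libraries scaled by totals alone 4 were called: miR-190 (rho 0.86), miR-127* (0.77), miR-122 (-0.75) and miR-339-3p, so that 1 list member was called in place of 0. Without strains 10, 13, 14 and 20, and without these and strain 28, 1 was called, miR-190. With the first principal component removed miR-190 had rho 0.79 and adjusted p = 0.0616, close enough to the threshold for the error of 100000 permutations to matter. Each strain left out in turn gave 0 to 0 calls among all rows and 0 to 0 among list members. The mean level of miR-375 was 90.0 to 112 CPM over these 18 settings, and its SD 0.49 (without strain 22) to 0.73 log2. The fold of strain 22 over the next strain was 2.83 with totals alone and 2.46 to 2.51 with single strains left out, and strain 22 was highest under all 4 scalings. Among the 20 miRNAs at the ends of the order 1, miR-330*, changed sign, under totals alone; of the 50 other named ones 37 changed sign in at least 1 setting, none of them called in it. Over all settings rho, or r where that was used, of miR-190 lay between 0.44 and 0.92. No paired analysis was possible because each strain has 1 library, so groups share only replicate number 1. With 1 library per strain, statements about single strains have no replicate check, and the part of read depth was not tested.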
